A study of Mus musculus with 20 samples.

Results

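Uteri of mice given HPTE were compared with uteri of mice given vehicle alone, 24 h after a single injection, on whole-genome expression arrays. The comparison takes 6 of the 20 arrays of the series, chosen by their titles: 3 HPTE 24 h arrays and 3 sesame oil 24 h arrays, the vehicle group. Every animal was a C57bl6/J female, at least 10 weeks of age, whose ovaries had been removed 10 to 14 days earlier, and no altered allele is named for any group. HPTE was given once, subcutaneously, at 750 µg in 100 µl of sesame oil, and the vehicle mice received the oil alone. 3 further groups of the same kind of animal were set beside it. These are BPA 24 h (750 µg, 3 arrays), E2 24 h (250 ng, 2 arrays, replicates 2 and 3) and HPTE 2 h (750 µg, 3 arrays). Each array carries RNA of 1 whole uterus, so epithelium, stroma and muscle were measured together and p values reflect the spread between animals. The vehicle uteri are all labelled 24 h, and no vehicle uterus at 2 h was used here.

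Estradiol (E2) acts in the uterus mainly through estrogen receptor α, a transcription factor that is activated by its ligand. In an ovariectomized mouse a single dose first induces a wave of early transcripts within hours, and about a day later epithelial cells replicate their DNA and divide. HPTE, a metabolite of the pesticide methoxychlor, and bisphenol A (BPA), a building block of plastics, both bind the receptor. Each is a bisphenol, with hydroxyphenyl rings on a single bridging carbon, and the bridge carries a trichloromethyl group in HPTE and methyl groups in BPA.

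Cell division uses transcripts that are made shortly before mitosis. Cyclin B with the kinase Cdk1 drives entry into mitosis, kinetochore proteins and kinesin motors attach and move the chromosomes, and the ubiquitin enzyme Ube2c with Cdc20 ends the phase by marking cyclin B for destruction. The promoters of many such genes hold CCAAT boxes and a short element called the cell cycle homology region. Genes of cholesterol synthesis are controlled by SREBP factors, which bind sterol regulatory elements next to CCAAT boxes.

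Promoters of 2 division genes and 2 cholesterol genes that carry the results below are shown first. Each line runs 5′ to 3′ in the direction of the gene, from 250 bases before the start site to 50 after it, as given by RefSeq on GRCm38.p6. Capitals mark each match to CCAAT (or ATTGG, its reverse) and to TTTGAA (or TTCAAA), the letters searched for the cell cycle homology region. The windows are chr2:164769679-164769978 on the plus strand for Ube2c, chr9:70421505-70421804 on the minus strand for Ccnb2, chr8:122443373-122443672 on the minus strand for Mvd and chr13:8885356-8885655 on the plus strand for Idi1.
Ube2c: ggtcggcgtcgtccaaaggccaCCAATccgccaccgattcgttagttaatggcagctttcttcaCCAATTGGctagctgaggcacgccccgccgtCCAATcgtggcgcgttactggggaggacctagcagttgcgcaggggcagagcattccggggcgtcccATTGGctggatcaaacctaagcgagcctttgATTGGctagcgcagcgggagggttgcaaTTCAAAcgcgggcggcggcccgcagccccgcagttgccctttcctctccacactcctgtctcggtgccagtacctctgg
Ccnb2: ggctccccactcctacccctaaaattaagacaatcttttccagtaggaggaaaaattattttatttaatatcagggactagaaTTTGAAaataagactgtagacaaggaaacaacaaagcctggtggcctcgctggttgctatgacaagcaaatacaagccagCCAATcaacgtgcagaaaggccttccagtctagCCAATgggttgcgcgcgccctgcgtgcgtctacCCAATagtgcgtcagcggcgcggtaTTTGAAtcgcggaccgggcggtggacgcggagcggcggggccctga
Mvd: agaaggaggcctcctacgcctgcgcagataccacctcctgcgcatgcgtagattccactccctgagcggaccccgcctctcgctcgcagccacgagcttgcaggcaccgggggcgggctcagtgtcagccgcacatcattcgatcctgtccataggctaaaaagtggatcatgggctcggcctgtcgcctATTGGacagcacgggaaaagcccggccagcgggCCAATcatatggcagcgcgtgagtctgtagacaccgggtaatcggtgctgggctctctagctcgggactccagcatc
Idi1: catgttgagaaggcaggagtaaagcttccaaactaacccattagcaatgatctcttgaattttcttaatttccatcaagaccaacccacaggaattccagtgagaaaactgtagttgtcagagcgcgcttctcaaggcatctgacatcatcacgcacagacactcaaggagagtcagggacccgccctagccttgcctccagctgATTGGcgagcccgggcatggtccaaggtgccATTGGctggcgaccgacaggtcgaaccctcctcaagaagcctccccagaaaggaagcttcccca

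In the Ube2c window, CCAAT matches began at bases -228, -186 and -155 on the plus strand and at -183, -88 and -57 on the minus strand, and those at -186 and -183 overlap. Its TTCAAA lies at -29, close to the start site. Ccnb2, cyclin B2, had CCAAT at -87, -54 and -21 and TTTGAA at -167 and just after the start site. The windows of Mvd and Idi1 held a pair of CCAAT matches each, at -60 and -27 and at -45 and -14, and no TTTGAA.

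The same letters were searched on both strands in every member of these lists that was higher than vehicle and had a window in the table. A gene was counted when any of its windows held the letters. Of the 21 division genes found, 17 (81%) held CCAAT and 14 (66.7%) held TTTGAA, beside 41.1% and 20.2% of all 27025 genes with a window. Of the 13 cholesterol genes found, all 13 held CCAAT (100%) and 1 (7.69%) held TTTGAA. The E2F letters TTCCCGC and TTTGGCG were in 0 and 1 of the 21 division genes, and occurred in 5.29% and 1.77% of all genes with a window. The sterol element TCACNCCAC was in 1 of the 13 cholesterol genes and in 1.44% of all genes. GGTCA and TGACC with 3 bases between them, the letters of a full estrogen response element, were in no gene of either list and in 0.074% of all genes. A match describes letters in a window of 300 bases and no binding was measured.

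Of 41174 probes, 31257 passed the filter and were tested, which required a signal marked by the scanner software as well above background on all arrays of the HPTE 24 h group, the vehicle group or both. The share of probes with that mark was 74.5% to 80.9% on the 6 arrays, and the Pearson r across probes was 0.985 to 0.994 between vehicle arrays, 0.985 to 0.992 between HPTE arrays and 0.940 to 0.976 between the groups. Levels are given as scaled intensity, the processed spot intensity in arbitrary units after each array was set to a common 75th percentile, and may be read within a probe only. A change is the log2 difference in mean level, HPTE minus the other group. A probe was called when its adjusted p from limma, fitted over all 7 groups of the series, was under 0.05. Compared with vehicle, 11108 probes (35.5%) were called, 4893 higher (15.7%) and 6215 lower (19.9%), and the median change of all tested probes was -0.0558. That split moved with the scaling: 44% of the calls were higher here, 51.7% with quantile normalization, 50.2% with normexp and quantile normalization, 21.4% of 8064 with no scaling and 8.69% of 3775 with scaling to the spike-in probes. The median of all tested probes was then -0.17 with no scaling and -0.36 with the spike-in probes, so changes are read relative to it.

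Transcripts known from sperm cells and testis were present on the vehicle arrays. All 18 listed transcripts of sperm cells and testis were called lower after HPTE, with a median change of -4.82, and 17 of them were well above background on all vehicle arrays. Their summed scaled intensity was 235000, 78400 and 69600 on the vehicle arrays and 5550, 6640 and 6510 on the HPTE 24 h arrays. Over all other groups the sum ranged from 2650 to 30000, so that the vehicle arrays stood above each of the treated arrays and vehicle replicate 1 above the other two. The 12 largest decreases that met the naming rule were Ccer1, Spz1, Cst9, Pdha2, Spata4, Prr27, Cabs1, Ppp3r2, Cst8, Ubl4b, Pdilt and Gk2. Their fitted changes ran from -6.01 to -5.64. Most are of this kind, and Cst8 was listed as an epididymis marker. Epididymis markers summed to 2000, 1110 and 1020 after vehicle and 536, 535 and 660 after HPTE, with 1 of 5 tested higher and 1 lower. For 6 of the 12 decreases no HPTE array was well above background, and these were at least 11.4-fold to 21.6-fold lower. The part of this difference in other decreases was not tested. Among the 29149 tested probes whose vehicle arrays lay within 2-fold of each other, a limit set after the values were seen, 10000 were called, 4822 higher and 5178 lower.

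Transcripts of cell division rose as a group 24 h after HPTE. In the list for entry into and exit from mitosis, 27 of 30 genes were higher, 1 was lower and 2 were not called, with a median change of 2.17. In the list for the spindle checkpoint and kinetochore, 25 of 27 were higher with a median of 1.91, and 11 of 13 mitotic kinesins were higher with a median of 2.41. These were the highest medians of the 21 pathway lists, beside a median of -0.0558 and 15.7% of probes higher over all tested probes. In a whole uterus, more dividing cells and more RNA per cell cannot be told apart, nor can fewer cells of a type and less RNA per cell for the decreases. Across all alternative settings, 24 to 29 of the mitotic genes, 19 to 25 of the spindle genes and 9 to 12 of the kinesins were higher.

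**Figure D1:**
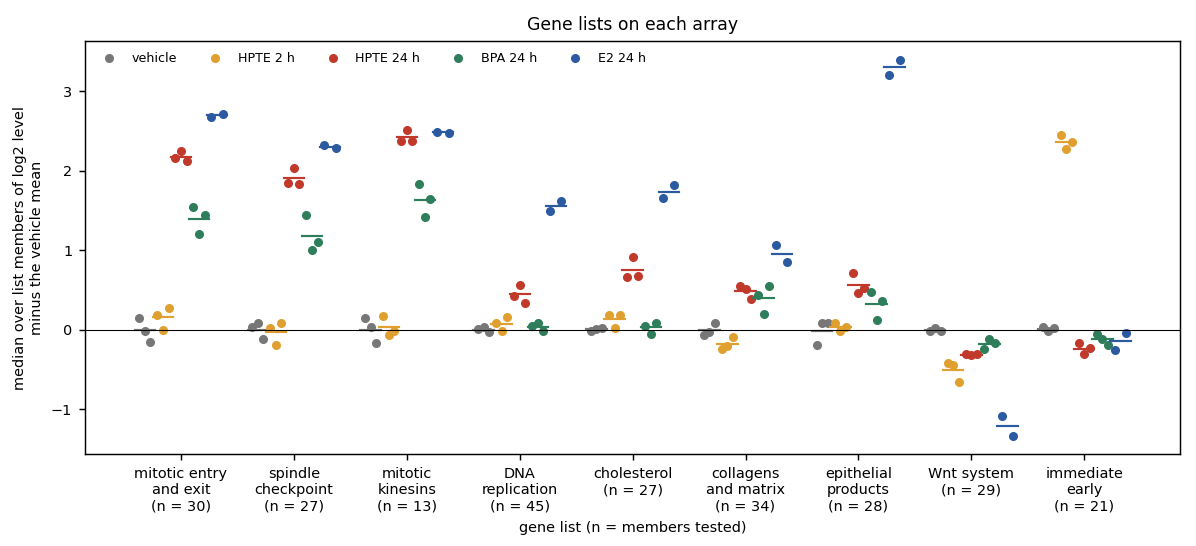
Median over the members of 9 gene lists of the log2 level minus the vehicle mean (y axis), by array, for vehicle, HPTE 2 h, HPTE 24 h, BPA 24 h and E2 24 h; points are arrays and lines are group means. The 3 HPTE 24 h arrays lie at 2.16, 2.25 and 2.13 for the mitotic list, above the 3 BPA arrays (1.21 to 1.55) and below the 2 E2 arrays (2.68 and 2.72).

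Ube2c, which supplies ubiquitin to the anaphase-promoting complex, was at 444, 439 and 398 on the vehicle arrays and at 3280, 3400 and 3140 on the HPTE arrays. The replicates of each group were close and the groups far apart, a change of 2.94 (SE 0.20, limma adjusted p = 5.14e-07) or 7.68-fold. Its probe lies on chr2, 164513170 to 164513229, on the mouse assembly mm7 used by the array, for which no exon annotation was used here. Ccnb2, on chr9 at 70439814 to 70439873, read 2460, 1930 and 1510 after vehicle and 14400, 14700 and 14500 after HPTE, a change of 2.91 (SE 0.22, limma adjusted p = 9.14e-07). Cdc25c, the phosphatase that activates Cdk1, had no vehicle array well above background at its dimmer probe and read 101, 110 and 116 after HPTE, at least 7.93-fold higher (limma adjusted p = 5.13e-07). Its brighter probe went from 35.9, 40.3 and 32.4 to 276, 303 and 300, a change of 3.02.

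Cdk1 itself read 486, 546 and 446 after vehicle and 2210, 2230 and 2180 after HPTE, and Aurkb, the kinase of the chromosomal passenger complex, read 200, 141 and 152 against 821, 956 and 842. Both kinases rose, by 2.17 and 2.42. Birc5, survivin, a partner of Aurkb in that complex, was at 3300, 2530 and 2320 after vehicle and 17100, 20500 and 17300 after HPTE (2.76, SE 0.20). Cdc20, which activates the anaphase-promoting complex, changed by 2.46, Plk1, a kinase of mitotic entry, by 2.24 and Foxm1, a transcription factor of these genes, by 2.12. Pttg1, securin, was the 1 mitotic member called lower, from 28600, 24100 and 26600 to 22100, 23100 and 22900 (-0.22, limma adjusted p = 0.0394). No mitotic member was called lower with no scaling, spike-in scaling, the slide or replicate block, only the 2 groups, no filter or array weights, or without any 1 of the arrays other than vehicle replicate 2. Cdc25b (0.26) and Ube2s (0.43) were not called.

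Genes with the largest increases over the whole array were of the same kind. Pimreg, a mitotic regulator, changed by 3.21, Iqgap3, a scaffold protein of proliferating cells, by 3.16, and Aspm, a spindle pole protein, by 3.02. Pimreg was already high at 2 h, with a mean of 5340 on the HPTE 2 h arrays. It read 310, 288 and 257 after vehicle and 2830, 2560 and 2520 at 24 h. The difference between the times was not called (-1.02, limma adjusted p = 0.0795). Cep55 (2.90), which acts in the last cut between daughter cells, the kinetochore protein Cenpf (2.88), Sapcd2 (2.91) and the kinesin gene Kifc5b (2.89) followed. Kifc5b was uneven, at 4180 on HPTE replicate 1 and at 1420 and 1180 on the other two, above 282, 262 and 233 after vehicle. Ifne, an interferon of the female reproductive tract, was the 1 gene of the 12 largest increases that is not known for division or proliferation. It read 23.2, 18.3 and 21.4 after vehicle and 145, 170 and 156 after HPTE (2.91, SE 0.27, limma adjusted p = 4.18e-06).

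Kinetochore and motor genes showed the same close replicates. Cenpe, the motor that carries chromosomes to the spindle equator and a member of both lists, read 2130, 1670 and 1520 after vehicle and 11200, 11900 and 11200 after HPTE (2.70, SE 0.19, limma adjusted p = 5.63e-07). Cenpa, the histone variant of centromeres, went from 389, 336 and 297 to 1840, 1890 and 1850, a change of 2.46. Ska1 (2.54), Kif18b (2.62), Kif23 (2.54) and Kif4 (2.52) rose in the same range. Mad2l1, the checkpoint protein that holds Cdc20 inactive, rose less, by 1.07 (limma adjusted p = 0.0038), from 557, 614 and 524 to 1140, 1270 and 1160, and had been at 5860, 5580 and 6350 on the HPTE 2 h arrays. Kinetochore members Zwint (-0.13) and Mis12 (-0.02) and the kinesins Kif2c (0.29) and Kif24 (0.30) were not called.

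Genes of DNA replication had a smaller median change than those of mitosis. Of 45 genes 28 were higher, 1 was lower and 16 were not called, with a median change of 0.45. The count was 15 with no scaling and 1 with scaling to the spike-in probes (median 0.15), and 21 with the slide as a block. Tk1, thymidine kinase, rose from 605, 721 and 636 to 3130, 3430 and 2490 (2.20, SE 0.21, limma adjusted p = 4.91e-06), and Mcm10, which helps to start replication, rose by 1.28. E2f1, a transcription factor of S phase, changed by 1.14, Rrm2, a subunit of ribonucleotide reductase, by 1.13 and Mcm5, a subunit of the replicative helicase, by 0.67.

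Other parts of the replication machinery stayed near the vehicle level. Pcna, the sliding clamp of DNA polymerase, was at 13800, 14300 and 13100 after vehicle and 15700, 16600 and 15100 after HPTE (0.20, limma adjusted p = 0.056). The helicase subunit Mcm2 was at 1710, 1850 and 1950 against 1710, 1250 and 1430 (-0.34, limma adjusted p = 0.051), and Mcm4 was called lower, at -0.27. Orc1, of the origin recognition complex, read 45.7, 44.6 and 39.3 against 49.5, 43 and 47.4, with overlapping groups.

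**Figure D2:**
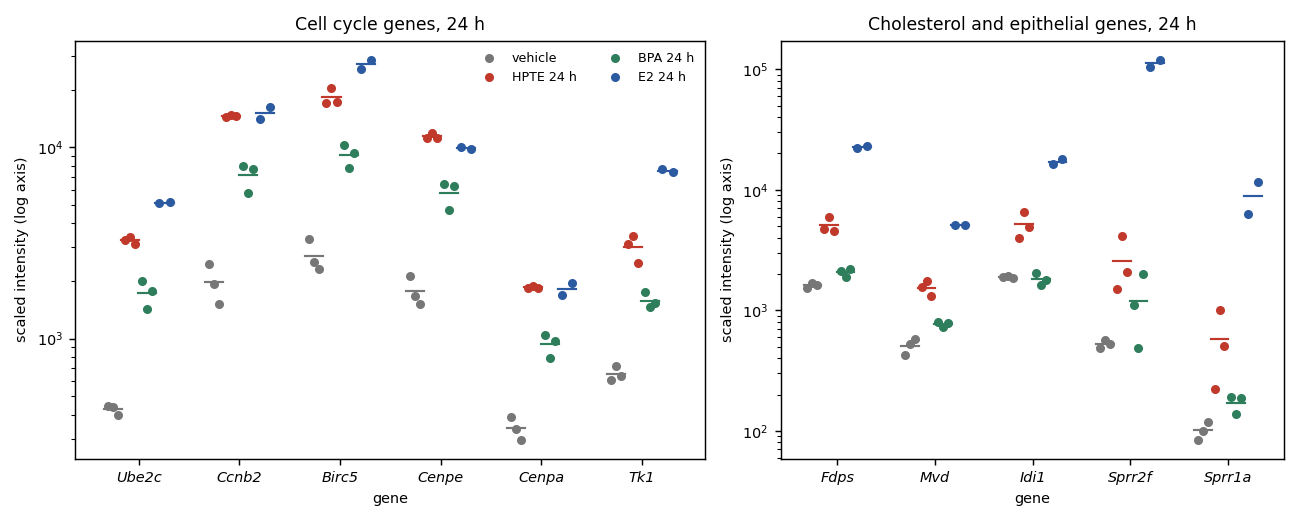
Scaled intensity (arbitrary units, log axis) of 6 division or replication genes, 3 cholesterol genes and 2 epithelial genes in vehicle, HPTE 24 h, BPA 24 h and E2 24 h uteri; points are arrays and lines are group means. Ccnb2 reads 14400 to 14700 after HPTE and 14100 and 16200 after E2, whereas Fdps reads 4580 to 5990 after HPTE and 22400 and 23200 after E2.

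Of the cell cycle brakes and G1 regulators, 1 of 23 was higher, 3 were lower and the median was -0.03. Ccnd2, cyclin D2, fell from 13400, 14000 and 14100 to 8180, 7100 and 7330 (-0.88), and the inhibitor Cdkn1c fell from 43600, 40900 and 34600 to 21600, 22500 and 23900 (-0.80). Ccnd1, cyclin D1, changed by -0.59, a call lost with spike-in scaling, the slide block and without vehicle replicate 2. The kinase Cdk4, its partner, changed by 0.40, a call lost in 6 settings, among them no scaling and the slide block, and at 0.09 with spike-in scaling.

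Cholesterol synthesis and uptake was the metabolic list that rose. Of 27 genes 21 were higher, none was lower and the median change was 0.73, with 16 higher under the slide block and 6 with the spike-in scaling. Fdps, which makes farnesyl diphosphate, was at 1540, 1690 and 1610 after vehicle and 4720, 5990 and 4580 after HPTE (1.65, SE 0.14, limma adjusted p = 1.87e-06; the median over its 2 probes was 1.19). Mvd, the decarboxylase that makes isopentenyl diphosphate, went from 426, 522 and 573 to 1570, 1740 and 1310, a change of 1.60. Idi1, the isomerase of that product, went from 1890, 1930 and 1850 to 4000, 6540 and 4940 (1.42). The array places the Idi1 probe on chr2 of mm7 while RefSeq has the gene on chr13, so its name rests on the array annotation.

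Replicate 2 of HPTE was the highest of the 3 for several of these genes. Sqle, squalene epoxidase, read 3050, 4720 and 3310 after HPTE against 1750, 1740 and 1710 after vehicle (1.06). The genes not called were Insig1, Insig2, Hsd17b7, Lss, Acat2 and Scap. Fatty acid synthesis did not move together: 5 of 20 were higher, 1 was lower and the median was 0.15, or -0.15 with spike-in scaling, with 2 higher without vehicle replicate 1, 1 with the slide block and 0 with no scaling or spike-in scaling. Scd1, stearoyl-CoA desaturase, was lower (-1.35, limma adjusted p = 0.0444) on uneven arrays, with 11900, 22500 and 10600 against 4120, 13100 and 3190, a call lost in 7 settings, among them without vehicle replicate 1 or 2 and without HPTE replicate 1 or 3. The summed level of adipocyte markers was also uneven, 66500, 101000 and 55000 against 33000, 73800 and 17900, and its part in this result was not tested.

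Secretory and epithelial products that estrogen regulates rose in part. Of 28 tested genes 10 were higher, 1 was lower and 17 were not called, with a median change of 0.52, and 5 were higher with spike-in scaling. Sprr2f, a small proline-rich protein of the epithelial surface, read 483, 567 and 524 after vehicle and 1510, 4120 and 2070 after HPTE (2.16, SE 0.44, limma adjusted p = 0.00163). Sprr1a went from 84.6, 100 and 119 to 221, 996 and 505 (2.26), again highest on HPTE replicate 2. Muc1, the mucin of the apical surface, read 105, 181 and 217 against 557, 526 and 673 (1.86). Krt85, a hair keratin, was not well above background after vehicle and read 80.3, 41 and 28 after HPTE, at least 3.29-fold higher (limma adjusted p = 0.00318), a call lost with the slide block and with normexp.

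Products with known estrogen induction did not all move. Ltf, lactoferrin, was at 7110, 8870 and 9020 after vehicle and 2750, 10700 and 9220 after HPTE (-0.36, limma adjusted p = 0.57), and C3, complement component 3, was at 88600, 96300 and 97100 against 151000, 86800 and 59900. The HPTE arrays of both genes spread around the vehicle arrays. Lcn2, lipocalin 2, rose by 0.69, and Aqp8, a water channel, fell from 468, 298 and 239 to 162, 149 and 141 (-1.10, limma adjusted p = 0.013). Aqp8 was the 1 lower call of the list, lost with the slide block and without vehicle replicate 1. Vehicle replicate 1 was its highest array, as for the sperm and testis markers, and the part of that difference was not tested.

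Markers of the tissue layers did not all move together. The median change was 0.65 for epithelium and 0.35 for smooth muscle, beside 0.02 for stroma and 0.09 for endothelium. Marker lists were not recomputed under the other scalings. Summed over 14 epithelial markers, all well above background on every array of both groups, scaled intensity was 174000, 204000 and 185000 after vehicle and 314000, 289000 and 316000 after HPTE, with 9 of 14 called higher and none lower. Krt8, a keratin of simple epithelia, went from 30900, 37100 and 34500 to 70800, 63000 and 69700 (0.99). Of 14 smooth muscle markers 7 were higher, and their sum was 1190000, 1070000 and 1180000 against 1620000, 1670000 and 1510000. Skeletal muscle markers, foreign to the uterine wall, summed to 14200, 12200 and 15400 against 34100, 35000 and 25900, with 3 of 7 higher, and vaginal squamous markers to 4370, 7910 and 5010 against 2270, 32200 and 10000. The high value of HPTE replicate 2 falls on the same array as the highest Sprr1a and Sprr2f, and the part of these marker changes in the results above was not tested.

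**Figure D3:**
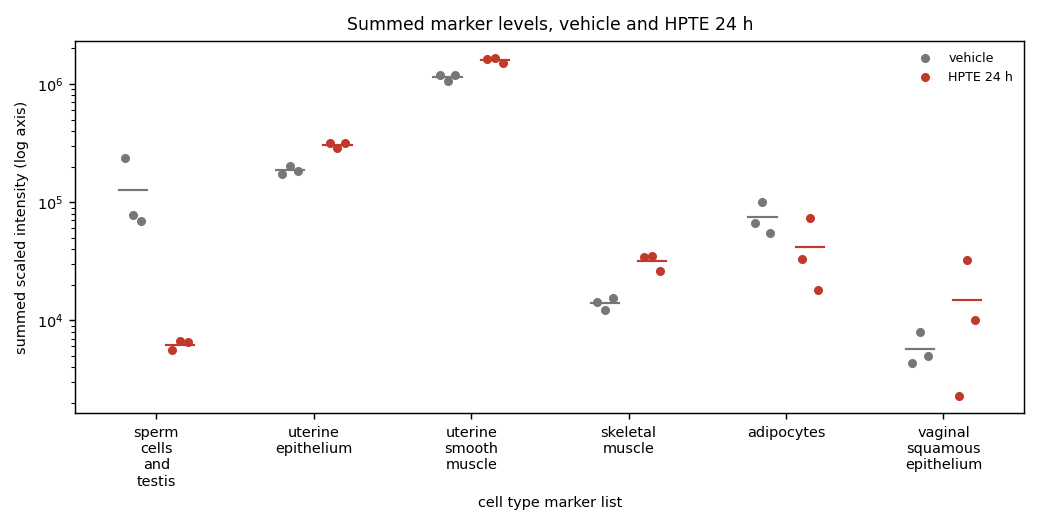
Summed scaled intensity (arbitrary units, log axis) of 6 marker lists in vehicle and HPTE 24 h uteri; points are arrays and lines are group means. Sperm and testis markers fall from 69600 or more after vehicle to 6640 or less after HPTE, and epithelial markers rise from at most 204000 to at least 289000.

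Collagens and other matrix proteins were mostly higher. Of 34 genes 19 were higher, 2 were lower and 13 were not called, with a median change of 0.47, but 12 were higher with no scaling, 8 with the slide block and 1 with spike-in scaling (median 0.17). Col1a1, a chain of type I collagen, read 35600, 30000 and 42500 after vehicle and 105000, 105000 and 94300 after HPTE (1.5, SE 0.37, limma adjusted p = 0.00598). Bgn, biglycan, changed by 1.30, and the collagen-binding protein Sparc and the collagen VI chain gene Col6a2 by 1.21 each, and each of these 4 lost its call in at least 1 setting. The small proteoglycans Prelp (-0.68) and Ogn (-0.58) fell. Of 22 matrix proteases and inhibitors 3 were higher and 3 lower, beside 15.7% of all tested probes higher and 19.9% lower. Neither count was above the share over all probes. The higher count was 1 under no scaling or without vehicle replicate 1 or any 1 HPTE array. It was 0 under the slide block or spike-in scaling. Mmp10, stromelysin 2, fell from 650, 658 and 774 to 359, 238 and 376 (-1.12).

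Ligands and targets of Wnt signalling were called lower about as often as probes in general. Of 29 tested genes none was higher, 6 were lower and 23 were not called, with a median of -0.34, beside 19.9% of all tested probes lower. Wnt4, a ligand needed for uterine gland and stromal function, fell from 1930, 1980 and 2300 to 981, 1100 and 1200 (-0.92, SE 0.18, limma adjusted p = 0.00127). Wnt2, a stromal ligand, fell from 1660, 1530 and 1490 to 788, 882 and 948 (-0.84), a call lost with the slide block, and Axin2, a feedback inhibitor that the pathway induces, from 4420, 3400 and 4150 to 2350, 2190 and 2930 (-0.68). The ligand Wnt6 (-0.68), the transcription factor Lef1 (-0.59) and the coreceptor Lrp6 (-0.44) were also lower. With the slide block 2 of 29 were lower, without vehicle replicate 1 there were 4, and with array weights 11.

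Growth factor genes went both ways. In the IGF and EGF system 3 of 21 were higher and 7 lower, median -0.24. Over all tested probes 15.7% were higher and 19.9% lower. With spike-in scaling 0 were higher and 3 lower, and with the slide block 3 were higher and 4 lower. Vegfa, the endothelial growth factor, fell from 4960, 5920 and 5090 to 2500, 2650 and 3020 (-0.97, limma adjusted p = 0.0014), and Igfbp3, an IGF-binding protein, from 23700, 22300 and 24300 to 16100, 12500 and 14800 (-0.70). Igf2 changed by -0.87, a call lost with the slide block and when only the 2 groups were fitted. The receptor gene Erbb3 (0.83) and Igfbp5 (0.71) were higher, both calls lost with spike-in scaling, and Igf1 was not called (0.32, limma adjusted p = 0.18). In the activin, inhibin and BMP system 3 of 28 were lower (1 to 9 over the settings) and none higher, among them Smad7, an inhibitory Smad, at -0.97. Inhbb, the activin βB subunit, read 6420, 5560 and 4710 against 3290, 3390 and 3260 (-0.74, limma adjusted p = 0.053).

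Hormone receptors and direct estrogen targets were close to vehicle. Of 23 genes of that list 1 was higher, 3 were lower and 19 were not called. With the slide block 0 were higher and 1 was lower, and with spike-in scaling 0 were called in either direction. Esr1, estrogen receptor α, fell from 25100, 21500 and 17800 to 12700, 16500 and 15200 (-0.53, limma adjusted p = 0.0424), a call lost in 10 settings, among them the slide block and without vehicle replicate 1 or 2 or HPTE replicate 1 or 3. Pgr, the progesterone receptor, read 425, 489 and 448 against 490, 463 and 506, and Greb1, a direct target of the receptor, read 810, 752 and 697 against 664, 620 and 610. At 2 h Pgr had been at 1190, 1220 and 1180 and Greb1 at 9240, 10700 and 9260.

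Ribosome assembly, protein folding and metabolism of foreign compounds changed little as groups. Of 30 ribosome biogenesis genes 1 was higher and 8 were lower, median -0.11, with 3 lower under the slide block or spike-in scaling. Ddx21, an RNA helicase of the nucleolus, fell from 2070, 1810 and 1800 to 1210, 1120 and 1090 (-0.73, limma adjusted p = 3.34e-05), and Nolc1 (-0.72) and Gnl3 (-0.57), other nucleolar proteins, fell with it. Of 29 folding genes of the endoplasmic reticulum 6 were higher and 1 lower, median 0.13, or -0.17 with spike-in scaling, which left 0 higher. Pdia5, a disulfide isomerase, rose by 0.83 (limma adjusted p = 2.23e-05).

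Of 28 genes of xenobiotic metabolism 6 were higher and 3 lower, median 0.18, or -0.12 with spike-in scaling. The higher count was 2 with no scaling, 3 with the slide block and 0 with spike-in scaling, and 1 was lower without vehicle replicate 1 or 2. Nqo1, a quinone reductase, rose from 811, 727 and 883 to 1550, 1790 and 1450 (0.98, limma adjusted p = 0.000163). Sult1e1, which sulfates estrogens and so inactivates them, fell from 115, 51.9 and 51.6 to 20.6, 5.74 and 24.6 (-2.24). Its highest vehicle array was replicate 1, as for the sperm and testis markers, and the part of that difference was not tested. Interferon-responsive genes had 7 higher of 27 and none lower, median 0.24, or -0.06 with spike-in scaling, with 0 higher under no scaling or spike-in scaling and 3 under the slide block or without vehicle replicate 1 or HPTE replicate 1. Of 22 complement and antigen presentation genes 3 were higher, median 0.03, a sign that quantile, normexp, no scaling and spike-in scaling turned, with 1 higher under the first 3 and 0 under the last. Cfb, complement factor B, was one of them, from 3590, 3480 and 3880 to 8320, 7640 and 6530 (1.03), a call lost with spike-in scaling and the slide block.

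A further list held transcripts followed by RT-PCR in other animals, taken from earlier work and an earlier set of arrays. Of its 22 members 7 were higher, 1 was lower and 14 were not called at 24 h, with a median of 0. Fos, an immediate early factor, read 281, 288 and 317 after vehicle and 321, 206 and 274 after HPTE 24 h, and Nr4a1, an orphan nuclear receptor, 5810, 4840 and 5510 against 6550, 5990 and 5900. Neither was called.

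At the same time and at a dose equal by mass, HPTE was set against BPA to ask whether bisphenols that differ in the bridge differ in response. The comparison is the only matched pair of related compounds at 24 h, and p values were adjusted over all tested probes. In all 1411 probes (4.51%) were called, 1024 higher after HPTE (3.28%) and 387 lower (1.24%), with a median difference of -0.0227. Of the 4 comparisons this count moved most between settings: it was 0 when only these 2 groups were fitted (8568 probes at unadjusted p under 0.05) and with spike-in scaling (2083 at unadjusted p under 0.05), 27 with no scaling, 15 with the slide block, 9 without the second scan day and 5159 with array weights. Leaving out 1 array gave 41 (without BPA replicate 2), 84 (without HPTE replicate 2), 576 and 771 (without HPTE replicates 1 and 3) or 637 and 558 (without BPA replicates 1 and 3). With no scaling 22 of the 27 were higher after HPTE.

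Cell division and cholesterol genes were higher after HPTE than after BPA. In the mitotic list 16 of 30 were called higher and none lower, with a median difference of 0.81, in the spindle list 18 of 27 with 0.70, and among the kinesins 6 of 13 with 0.76. For cholesterol synthesis it was 17 of 27 with 0.58, and for DNA replication 18 of 45 with 0.40. Within the slides that held both groups (5 and 6), median differences were 0.59 and 0.83 for the mitotic list, 0.57 and 0.80 for cholesterol and 0.28 and 0.54 for replication. Their medians were above 0 in every setting run, whereas in the settings that brought the overall count to 27 or fewer the mitotic, spindle, kinesin and replication lists had 0 calls, and cholesterol had 6 with no scaling, 5 with the slide block and 3 without the second scan day. Without HPTE replicate 2 the called members were 0 mitotic, 2 spindle, 0 kinesin, 0 replication and 9 cholesterol genes, and without BPA replicate 2 they were 0, 0, 0, 1 and 9.

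For the division genes given next, the arrays of the compounds did not overlap. Ube2c read 2010, 1430 and 1770 after BPA, below each of the HPTE arrays, a difference of 0.93 (limma adjusted p = 0.0196) or 1.9-fold. Cenpa read 1050, 794 and 973 after BPA (1.0, limma adjusted p = 0.00848) and Tk1 1750, 1460 and 1530 (0.93, limma adjusted p = 0.0265). Against vehicle, the mitotic list after BPA had 25 of 30 higher and a median of 1.40, while the replication list had 3 higher and 5 lower (median 0.04) and the cholesterol list 4 higher and 1 lower (median -0.02). Over all tested probes 5.43% were higher and 8.48% lower after BPA than after vehicle, near the shares of the replication list.

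Cholesterol genes after BPA lay near the vehicle level. Fdps read 2110, 1900 and 2220 after BPA, a difference of 1.29 (limma adjusted p = 0.00236), Idi1 2050, 1610 and 1790 (1.49, limma adjusted p = 0.00464) and Mvd 800, 726 and 777 (1.0, limma adjusted p = 0.00464). Sqle read 1360, 1240 and 1350 after BPA, below its vehicle arrays, with a difference of 1.46 (limma adjusted p = 0.0039). Elf3, an epithelial transcription factor, read 1370, 1560 and 1600 after HPTE and 827, 798 and 860 after BPA (0.86, limma adjusted p = 0.0085).

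Genes outside the lists with the largest differences were of several kinds. Crtac1, a cartilage matrix protein, read 62.5, 60.2 and 57.5 after HPTE and 18.7, 13 and 8.03 after BPA (2.26, SE 0.33, limma adjusted p = 0.00669), and Cdhr1, a photoreceptor cadherin, read 34.7, 22.1 and 24.1 against 3.67, 3.35 and 8.15, none of the latter well above background, at least 2.01-fold higher (limma adjusted p = 0.00769). Bpifb5, a secreted lipid-binding protein, read 1320, 2260 and 1120 against 403, 485 and 424 (1.78, limma adjusted p = 0.015). Those lower after HPTE were Tmigd3 (-2.24) and the sperm transcripts Adam1b, Gk2, Spz1 and Pdilt. All 10 genes named by rule in this comparison lost their call in at least 1 setting.

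Wnt4, Axin2, Vegfa, Ddx21 and Cdkn1c, each lower than vehicle after HPTE, were not called between the compounds. Differences and 95% intervals were -0.24 [-0.63, 0.14] for Wnt4, -0.04 [-0.35, 0.28] for Axin2, -0.15 [-0.57, 0.26] for Vegfa, -0.01 [-0.20, 0.18] for Ddx21 and -0.24 [-0.51, 0.03] for Cdkn1c. For Col1a1 the interval was wide, 0.60 [-0.19, 1.40], and for Bgn it was -0.10 [-0.73, 0.53]. None of 29 Wnt genes and 1 of 34 matrix genes were called in this comparison, with medians of -0.06 and 0.03. With 4.51% of all tested probes called, these counts lie near the share over all probes.

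**Figure D4:**
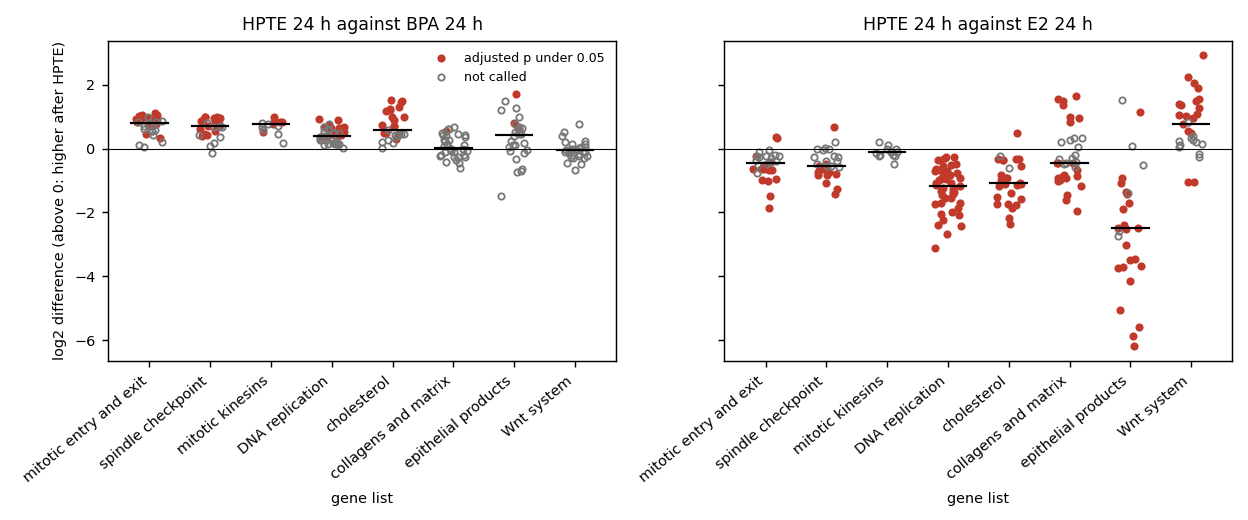
Log2 difference of each member of 8 gene lists, HPTE 24 h minus BPA 24 h and HPTE 24 h minus E2 24 h (y axis); filled points have a limma adjusted p under 0.05 and lines are list medians. Against BPA the mitotic and cholesterol medians lie at 0.81 and 0.58, and against E2 the kinesin median lies at -0.11 while replication and cholesterol lie at -1.16 and -1.07.

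E2 was given at 250 ng and HPTE at 750 µg, so their values are set side by side at unequal doses. Dose may not be the only difference, since the route and vehicle of E2 are not given here. Their part was not tested. In limma 15742 probes (50.4%) were called, 8861 higher after HPTE (28.3%) and 6881 lower (22%), with a median of 0.0874 over all tested probes. Of these calls 56.3% were higher after HPTE, beside 42.1% of 12236 with no scaling and 24.5% of 5830 with spike-in scaling, which moved the median to -0.24.

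The kinesins lay close to the E2 level, the other division lists somewhat below it. Of the 13 kinesins none was called in either direction, with differences from -0.47 to 0.20 and 95% bounds that reach from -0.94 to 0.69 over the 13 genes. Cenpe read 10000 and 9800 after E2 (0.20 [-0.24, 0.65]), Kif23 2370 and 2280 (0.11 [-0.36, 0.57]) and Ccnb2 14100 and 16200 (-0.06 [-0.58, 0.46]). In the mitotic list 14 of 30 were lower than after E2, 2 were higher and the median was -0.47 (7 lower with spike-in scaling or without E2 replicate 2, 8 without E2 replicate 3), and in the spindle list 12 of 27 were lower, 1 was higher and the median was -0.54. Cdk1 was at 4580 and 3980 after E2, above its HPTE level (-0.95, limma adjusted p = 0.000561). Cenpf was higher after HPTE, with 6080, 6850 and 6910 beside 4210 and 4060 after E2 (0.68, limma adjusted p = 0.0233).

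All 45 replication genes were called lower after HPTE than after E2, with a median of -1.16 and a range from -3.11 to -0.27, and 38 of them were with spike-in scaling. Orc1 differed by -3.11. Mcm2 read 8650 and 7040 after E2 (-2.43), Mcm10 7150 and 6210 (-2.25) and Pcna 38800 and 42100 (-1.36). Within the slides that held both groups (2 and 5) the list median was -1.21 and -1.29. Against vehicle, E2 had 45 of 45 replication genes higher with a median of 1.56, beside 26.9% of all tested probes higher, where HPTE had 28 with 0.45.

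Cholesterol, ribosome, folding and epithelial lists were also below the E2 level. Of 27 cholesterol genes 24 were lower (median -1.07), with Fdps at 22400 and 23200 after E2. Of 30 ribosome genes 28 were lower (-1.07), and of 29 folding genes 21 were lower and 3 higher (-0.95). The epithelial products differed most, with 21 of 28 lower, 1 higher and a median of -2.51. Sprr2f read 105000 and 120000 after E2, 47.8-fold above its HPTE level, and Padi2, a peptidylarginine deiminase, read 14900 and 15200 after E2 and 409, 487 and 459 after HPTE, in the range of its vehicle arrays (400, 469 and 497).

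Against vehicle, E2 had 20 of 29 Wnt genes and 12 of 22 complement and antigen presentation genes lower, beside 38.5% of all tested probes. In the Wnt list 16 of 29 were higher than after E2 and 2 lower (median 0.78; 7 higher with spike-in scaling), and in the complement and antigen presentation list 16 of 22 were higher and 1 lower (median 1.01; 4 higher with spike-in scaling). Igfbp3 read 1720 and 1640 after E2, 3.1 below its HPTE level on the log2 scale. Ano2, a calcium-activated chloride channel, read 547, 564 and 593 after vehicle, 113, 97.4 and 142 after HPTE, 296, 313 and 191 after BPA and 3.03 and 3.56 after E2. It was lower after HPTE than after vehicle (-2.29, SE 0.27, limma adjusted p = 2.03e-05), and no E2 array was well above background, so the HPTE level was at least 8.4-fold higher than after E2. Slc5a11, a sugar and inositol transporter, read 5900, 1520 and 2750 after HPTE and 92.3 and 35.2 after E2 (5.67), and Coch, cochlin, read 987, 634 and 1050 against 32.6 and 24.1 (4.96). Ctrc (-8.74) and Reg1 (at least 56.1-fold), both made by the pancreas, and Uox, urate oxidase (-5.6), were lower after HPTE than after E2. Pancreas markers summed to between 9590 and 26100 on the E2 24 h arrays, with 14 of 15 well above background on both, and to between 906 and 1460 on the HPTE arrays, with 5 of 15 on all. Their part in these differences was not tested.

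Compared with the uterus 2 h after HPTE, 17239 probes (55.2%) were called at 24 h, 9555 higher (30.6%) and 7684 lower (24.6%), with a median of 0.0661. Of the calls 55.4% were higher, beside 31.6% of 14672 with no scaling and 13.4% of 11631 with spike-in scaling, with medians of -0.19 and -0.48. No slide held both groups. Of the 21 immediate early factors none was called above vehicle at 24 h. Compared with 2 h, 20 of 21 were lower at 24 h, none was higher and the median was -2.58.

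Arc, an activity-regulated immediate early gene, read 16700, 16800 and 16800 at 2 h, 246, 178 and 179 at 24 h and 738, 354 and 339 after vehicle. It lay below vehicle at 24 h (-1.17, limma adjusted p = 0.00306). Egr4, a zinc finger factor, read 3290, 3590 and 3510 at 2 h and 29.8, 19.9 and 22.6 at 24 h, overlapping the vehicle arrays (41.7, 21.9 and 23.6). Klk1b24, a kallikrein, read 6070, 6630 and 5800 at 2 h and 47.6, 35.4 and 40.7 at 24 h (-7.23, limma adjusted p = 2.48e-09), below 241, 96.8 and 93.4 after vehicle. For Arc, Egr4 and Klk1b24 the highest vehicle array was replicate 1, as for the sperm and testis markers. The part of that difference in their vehicle levels was not tested. Against vehicle at 24 h, 7 of 21 immediate early factors were lower (median -0.21), 3 with any single array left out, 1 with the slide block and 0 with spike-in scaling.

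Some genes that were lower than vehicle at 24 h had been far above it at 2 h. Wnt4 had been at 20800, 18400 and 19800 and Vegfa at 38800, 33600 and 36100. Inhbb, not called against vehicle at 24 h, had been at 120000, 117000 and 109000. Ddx21 had been at 4500, 4470 and 4540, and the ribosome list had 20 of 30 genes above vehicle at 2 h (median 0.53) and 22 of 30 lower at 24 h than at 2 h (median -0.51). Over all tested probes 20.1% were higher and 29.3% lower at 2 h than after vehicle.

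The opposite order was seen in genes that were low at 2 h. Pik3ip1, an inhibitor of PI3 kinase, read 148, 122 and 117 at 2 h and 2840, 2840 and 3120 at 24 h, overlapping vehicle (2660, 3090 and 2880), while E2 24 h arrays read 489 and 273. Rnf186, a ubiquitin ligase of epithelia, read 19.8, 11.3 and 9.57 at 2 h, 346, 525 and 446 at 24 h and 126, 168 and 145 after vehicle (5.07 between the times, limma adjusted p = 1.67e-06). Ifne read 8.31, 7.22 and 6.62 at 2 h, not well above background on any array, and was at least 14.1-fold higher at 24 h. Mitotic genes were near the vehicle level at 2 h (3 higher and 3 lower of 30, median 0.16) and 28 of 30 were higher at 24 h than at 2 h (median 2.12), as were 12 of 13 kinesins (2.22). The replication list had 27 of 45 higher and 5 lower with a median of 0.37, which spike-in scaling turned to -0.18.

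**Figure D5:**
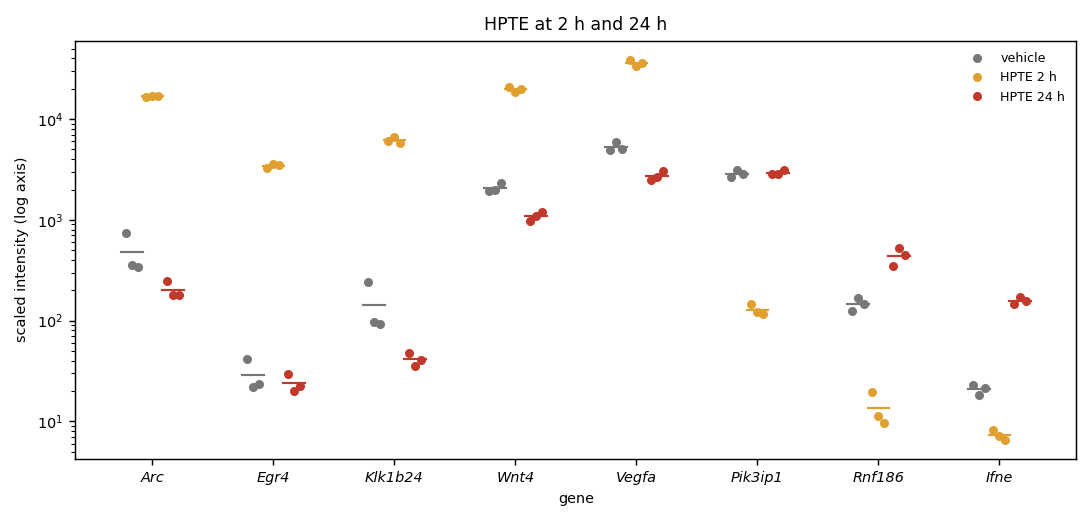
Scaled intensity (arbitrary units, log axis) of 8 genes in vehicle, HPTE 2 h and HPTE 24 h uteri; points are arrays and lines are group means. Arc, Egr4, Klk1b24, Wnt4 and Vegfa peak at 2 h and lie at or below vehicle at 24 h, while Pik3ip1, Rnf186 and Ifne are lowest at 2 h.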

How the data were processed

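Each array received Cy3-labelled cRNA from 500 ng of RNA of 1 uterus, with no second colour. The labels carry treatment and time under each other's tag, and groups were taken from the titles. The deposited scanner files hold spot intensity in arbitrary units, background-subtracted within each array by Feature Extraction 9.5.3.1 per the file headers and not scaled between arrays. Flags of type other in the deposited files mark spots well above background, saturated, outlying or control. The deposited series matrix equalled these values on all 20 arrays (tolerance 1e-06).

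Of 45018 spots per array 1639 were controls, and spots of each of the 41174 probes were averaged after outlying spots (46 to 134 per array) were left out. At most 2 probes per array were saturated. The 75th percentile of each array was subtracted from log2 intensity, and values were, for printing, multiplied by the median percentile (1679). 1 probe with too few values was dropped. Group means of all 7 groups were estimated together in limma 3.58.1 (R 4.3.3; lmFit, then eBayes), with two-sided tests and Benjamini-Hochberg adjustment within a contrast. A probe not well above background in a whole group gives a bound only, for which each array's lowest signal carrying that mark stood in for it. Contrasts share HPTE 24 h arrays, so they are not independent. Lists used 1 probe per gene, the brightest over 20 arrays, and are described by counts and medians with no list test. Symbols came from a RefSeq table on GRCm38.p6 (22951 of 25510 accessions matched), and 12 list genes had no probe by name.

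Named genes were the 12 largest increases and decreases against vehicle with no overlap of arrays, the 4 largest called changes per list, and the 5 largest differences each way in other contrasts. Clone, Rik, Gm and LOC names were left out. Members and lists were chosen with earlier results of these data known, and genes given as not called were added for contrast after their values were seen. Replicate numbers name arrays and do not pair them. Alternatives were quantile normalization with and without normexp (offset 50), no scaling, scaling to 8 spike-in probes, other filters, a fit of the compared groups alone, array weights, slide and replicate blocks, and leaving out each array. There were 6 slides and 2 scan days for the 20 arrays, with HPTE 24 h replicate 2 and BPA 24 h replicate 3 on the later day. The values of some transcripts are not reported here.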

Additional observations from a re-analysis of the deposited data

Results flagged for a closer look

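The differences between HPTE 24 h and BPA 24 h, E2 24 h and HPTE 2 h were themselves tested. Between HPTE and BPA at the same time and a dose matched by mass 1411 probes were called by limma, a count that fell to 0 in some settings. Between HPTE and E2 at 24 h, at unequal doses, 15742 were called. Between 24 h and 2 h after HPTE 17239 were called. Groups of 2 or 3 arrays are too small for a check of single outlying arrays.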

How the results depend on the processing

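Against vehicle the count of 11108 called probes lay within 1.5 times its value in 18 of 21 alternatives. The exceptions were 3775 with spike-in scaling, 5025 with the slide as a block and 1927 with a 2-fold minimum, and leaving out 1 array gave 8081 to 10554. Against BPA (1411) it held in 6 of 20: no scaling gave 27, spike-in scaling 0, the 2 groups fitted alone 0, no filter 785, the slide block 15, array weights 5159, a 2-fold minimum 92 and leaving out the second scan day 9, and leaving out 1 array 41 to 771. Against E2 (15742) it was 5830 with spike-in scaling, 4541 with a 2-fold minimum and 11780 to 14692 with 1 array left out, and against HPTE 2 h (17239) 5005 with a 2-fold minimum and 15576 to 16141 with 1 array left out. Replicate numbers came from the labels and did not pair the arrays: deviations of same-numbered vehicle and HPTE arrays correlated at -0.117, 0.0973 and -0.0577. With the replicate number as a block the counts were 10639, 977, 15192 and 17019. Leaving out the second scan day and the limit on vehicle arrays (10000 calls) were chosen after seeing the data. Ncoa3, a receptor coactivator, was higher than vehicle by 0.28 and turned to -0.02 with spike-in scaling. Its call was also lost with quantile normalization, no scaling, no filter, the slide block and the 2 groups fitted alone. The same held without vehicle replicate 1 or 2, without any single HPTE array and without the second scan day. Of 101 genes named against vehicle 54 kept their call in every setting, against BPA 0 of 10, against E2 8 of 10 and against HPTE 2 h 10 of 10. The number of arrays and signal over background limit the precision, and low-intensity probes carry bounds only. Causes were not tested.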

Other observations

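Further decreases were sought among probes whose vehicle arrays lay within 2-fold, and the following were picked after their values were seen. Comp, a cartilage matrix protein, read 932, 583 and 468 after vehicle and 146, 127 and 138 after HPTE, a change of -2.21 (SE 0.21, limma adjusted p = 3.68e-06). Myoc, myocilin, read 566, 769 and 943 against 197, 175 and 175, a change of -2.03. Apod, a lipid carrier of the lipocalin family, read 592, 678 and 544 against 158, 153 and 148, a change of -1.98. The HPTE arrays of all 3 genes lay close together and below every vehicle array. Testis transcripts such as Gapdhs (162, 98.1 and 86 after vehicle) were also among the largest decreases within this limit. The limit thus does not set such transcripts apart. Vehicle replicate 1 was the highest vehicle array for Comp, as for Gapdhs, but not for Myoc or Apod.

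Immune cell markers were uneven within groups. Macrophage markers summed to 161000, 181000 and 179000 after vehicle and 293000, 163000 and 226000 after HPTE, with 1 of 11 called higher, and B cell markers to 5180, 6620 and 7470 against 15700, 4970 and 5830, with none of 9 called. In both lists HPTE replicate 1 was the highest array. T and NK cell markers summed to 7360, 7770 and 7980 against 8010, 6650 and 7780. Stromal markers summed to 189000, 170000 and 184000 against 221000, 209000 and 216000, with 2 of 10 higher, and endothelial markers had 4 of 12 higher and 2 lower.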
